A study of Mus musculus with 4 samples.

Results

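The genes described here are 10 that act downstream of Fgf receptors: the feedback inhibitor genes Spry1, Spry2, Spry4, Spred1, Spred2, Dusp6 and Sef, and the Ets transcription factor genes Etv1, Etv4 and Etv5. They were taken by name from the tables, and 9 of the 10 names matched, out of 22072 gene names in all. No row carried the name Sef. RefSeq lists Sef as a synonym of Il17rd, so Il17rd is given beside the 9 as a further feedback gene and is not counted with them. All 9 averaged 1 FPKM or more, the level set for a gene to be tested. FPKM is the number of fragments scaled to transcript length and to the library's mapped fragments.

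RNA was sequenced from laser-captured mesenchyme of molar tooth germs of mouse embryos at embryonic day 14. The 4 libraries were Msx1+/- (control) upper molar, Msx1+/- lower molar, Msx1-/- (mutant) upper molar and Msx1-/- lower molar, with 1 library for each and no replicate of any. The controls carry a mutant Msx1 allele too, although the series title calls them wild type, the labels do not name that allele, and all animals are of a mixed background. Tissue of 3 control and mutant pairs was pooled per the series' design text, and the labels do not say whether the jaws came from the same embryos.

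Fgf ligands bind receptor tyrosine kinases and switch on the Ras-ERK kinase relay. In many tissues that relay raises transcription of the Etv4 and Etv5 factors, and of inhibitors that dampen the relay itself, so the RNA of these genes is widely used as a readout of Fgf signalling. In the tooth, Fgf signals pass between epithelium and mesenchyme, and Sprouty genes are known to limit them and to keep surplus teeth from forming. Msx1 is a homeodomain factor of the dental mesenchyme without which tooth development stops early.

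FPKM values in parentheses give the controls first and then the mutants, upper before lower molars in each genotype. Every difference is of log2(FPKM + 1), mutant minus control within a jaw unless stated otherwise, and a gene was counted as lower or higher where that difference was at least 1 in size. This scale understates changes of weakly expressed genes. No difference has a replicate check, and no p-value is printed. In RNA pooled from captured tissue, fewer cells of a type and less RNA per cell cannot be told apart.

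The tables held between 264 and 410 megabases of summed coverage per library, with the mutant lower library lowest. The median difference over the 10537 genes tested was -0.03 for upper molars and -0.39 for lower ones, so differences in lower molars are also given relative to that median. Msx1 itself was detected in all 4 libraries (170, 184, 126 and 85.9 FPKM), which is no check of the labels, since these are values for whole transcripts. Of 15 marker genes of dental mesenchyme all were measured, and Vim (193, 219, 190 and 142 FPKM) and Msx1 had the highest means. These markers summed to 1248, 1166, 925 and 677 FPKM, lower in the mutant in either jaw like most of the genes described here. That sum holds Msx1, the targeted gene, so part of its difference is that of Msx1 itself. Inhba (174, 138, 23.9 and 28.5 FPKM), chosen after its values were seen, also weighed on the sum. Of the 15, 4 were counted as lower in upper molars, against 3.26% of all genes, and 0 as higher, against 1.07%. In lower molars 7 were lower, Msx1 (-1.09) among them, against 9.43%, and 0 were higher, against 0.864%. The 15 markers did not all differ alike. Pax9 (45.7, 46.3, 68.1 and 66.1 FPKM), chosen after its values were seen, was higher in the mutant in both jaws. Msx2, Lhx8, Prrx1 and Twist1 were higher in upper molars only, and Barx1 in lower molars only, by less than the threshold. Of 16 epithelial markers 9 passed the filter, and Shh, Cdh1 and Cldn4, chosen after their values were seen, lay between 0 and 0.394 FPKM. Epithelial markers summed to 35.8, 56.6, 60.4 and 82.8 FPKM and were higher in the mutant in either jaw, with Krt5 (7.18, 17, 21.3 and 28.1 FPKM) and Krt14 (8.69, 14.8, 13.3 and 14.5 FPKM) leading. Summed endothelial markers, led by Ramp2 and Cdh5, were lower in the mutant (95, 90.1, 75.2 and 70.5 FPKM), as were erythroid markers, led by Hbb-y and Hba-x (755, 931, 520 and 674 FPKM). Macrophage markers, led by Fcer1g and Tyrobp, summed to 35.8, 47.5, 42.5 and 54.8 FPKM. The part of these cell types in the differences below was not tested.

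The promoters were examined first, because the Etv proteins bind DNA at a GGAA core and several of these genes differed together between the genotypes. RefSeq promoter windows (build GRCm38.p6) were found for 7 of the 9 genes, Spry4 and Etv4 being without an entry. The 250 bases before the start are printed for 4 genes, 3 that were counted as lower in the mutant (Dusp6, Spry1 and the outer start of Etv5) and 1 that was not (Spry2), with GGAA and its reverse complement TTCC in capitals. The windows lie at chr10:99262981-99263230 (plus strand), chr3:37639697-37639946 (plus strand), chr16:22439571-22439820 (minus strand) and chr14:105896820-105897069 (minus strand).
Dusp6: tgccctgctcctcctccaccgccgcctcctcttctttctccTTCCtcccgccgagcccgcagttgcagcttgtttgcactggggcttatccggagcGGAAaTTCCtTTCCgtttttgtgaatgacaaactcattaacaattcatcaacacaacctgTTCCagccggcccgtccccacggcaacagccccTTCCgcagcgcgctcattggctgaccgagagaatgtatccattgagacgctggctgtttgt
Spry1: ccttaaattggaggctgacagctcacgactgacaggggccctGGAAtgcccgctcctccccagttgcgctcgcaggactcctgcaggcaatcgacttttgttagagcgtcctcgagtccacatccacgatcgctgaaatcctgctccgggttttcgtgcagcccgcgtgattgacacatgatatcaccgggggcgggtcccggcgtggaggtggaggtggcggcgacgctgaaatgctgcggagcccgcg
Etv5: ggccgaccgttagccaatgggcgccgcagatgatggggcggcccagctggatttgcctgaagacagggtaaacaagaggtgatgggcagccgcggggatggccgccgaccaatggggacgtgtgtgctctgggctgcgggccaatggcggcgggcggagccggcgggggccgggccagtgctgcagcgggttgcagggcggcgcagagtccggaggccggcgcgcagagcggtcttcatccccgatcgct
Spry2: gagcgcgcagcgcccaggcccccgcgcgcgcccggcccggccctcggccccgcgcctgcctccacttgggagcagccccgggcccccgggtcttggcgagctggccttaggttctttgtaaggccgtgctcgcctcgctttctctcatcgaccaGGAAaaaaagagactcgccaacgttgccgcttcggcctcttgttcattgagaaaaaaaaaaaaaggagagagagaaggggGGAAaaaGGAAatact
On both strands, the core was found 6 times before Dusp6, 1 time before Spry1, 0 times before the outer start of Etv5, 4 times before its inner start and 3 times before Spry2. It was found 7 times before Spred2 and 4 times before Spred1, which were not counted as lower. Etv1, counted as lower in upper molars only, had 2 matches before its outer start and 1 before its inner start. Of all 32851 windows in the table, 93.4% held the core at least once, so its presence is common to most genes. The longer Ets site CCGGAAG, which contains the core, was in 6.91% of all windows and in 0 of the windows of the 7 genes. Among the 7558 tested genes with a window, 16.8% held that site. The AP-1 site TGANTCA (6.75% of all windows, 4.80% of those tested genes) and the Lef/Tcf site CTTTGAT (3.21% and 2.70%) were likewise in none of the windows of the 7 genes. The homeodomain core TAATTG (7.17% of all windows, 5.03% of those tested genes) was found 1 time, before the inner start of Etv1. These matches describe letters in short windows and show no binding.

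The first comparison set the mutant against the control within each jaw. Spry1, Spry4, Dusp6, Etv4 and Etv5 were lower in the mutant in both jaws, and 0 of the 9 genes were higher. These 5 of 9 stand against 1.59% of all genes tested that were lower in both jaws, and 0.399% were higher. The members were proposed with results of these data in view, so that share is a description. In upper molars 6 of 9 were lower, against 3.26% of all genes, and 0 were higher, against 1.07%. In lower molars 5 of 9 were lower, against 9.43%, and 0 were higher, against 0.864%. For 8 of 9 the mutant was below the control in both jaws by any amount, as it was for 49.7% of all genes. The 9 genes had a median difference of -1.07 in the upper jaw and -1.29 in the lower. Summed over the 9 genes, the mutant held 37.7% of the control FPKM in upper and 38% in lower molars.

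**Figure D1:**
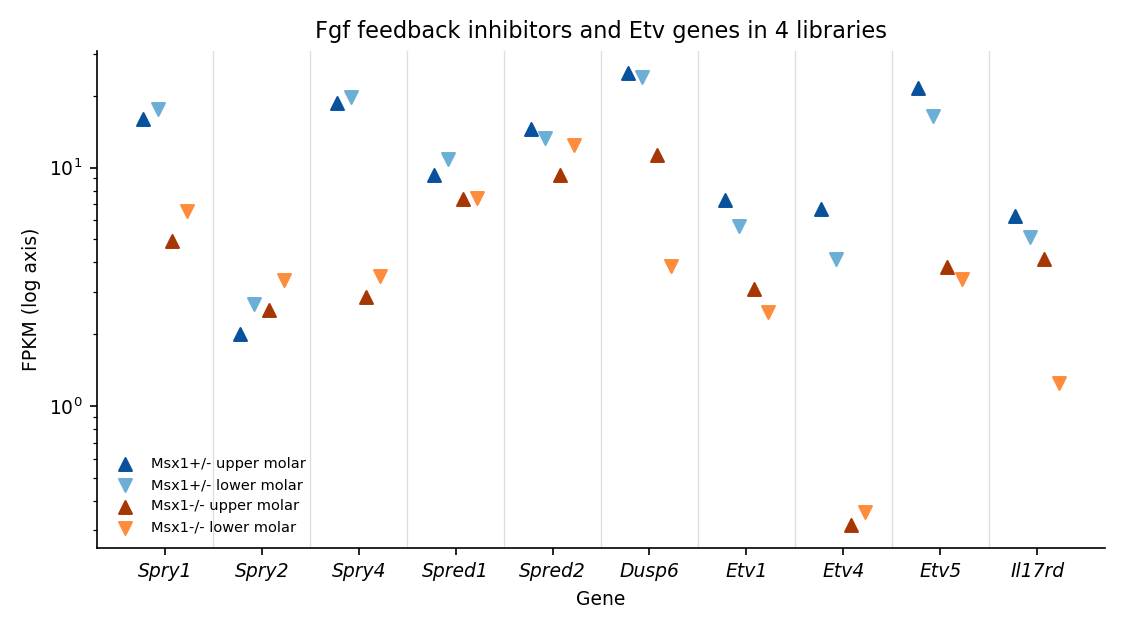
FPKM on a log axis for the 9 matched genes and Il17rd, with 1 point per library (blue for Msx1+/-, orange and brown for Msx1-/-, upward triangles for upper and downward triangles for lower molars). Spry4, Etv4 and Etv5 show the widest gap between the genotypes, and Spry2 shows mutant points at or above the controls of the same jaw.

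Among the Etv factors, Etv4 (chromosome 11, 101631056 to 101646624, mm9) showed the largest fold. Its level was 6.69 FPKM in control upper, 4.13 in control lower, 0.315 in mutant upper and 0.360 in mutant lower molars. Both mutant libraries were far below both controls, and the lower control stood 11.5-fold above the higher mutant. The differences were -2.55 in upper and -1.92 in lower molars, the latter -1.53 relative to the all-gene median. The mutant values rest on little sequence, with a mean coverage of 0.342 and 0.332 reads per transcript base against 6.99 and 3.35 in the controls. In the mutant upper library only 0.266% of the genes tested had a lower level. That rank is partly set by the filter, which left out genes averaging below 1 FPKM and which Etv4 passed only through its controls.

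Etv5 (chromosome 16, 22381386 to 22439643) encodes a close relative of Etv4 and was the most abundant of the 3 Etv genes in every library. It was at 21.6 FPKM in control upper, 16.4 in control lower, 3.82 in mutant upper and 3.42 in mutant lower molars. The genotypes did not overlap, and the mutant held 17.7% of the control level in upper and 20.8% in lower molars. The differences were -2.23 and -1.98, the latter -1.59 relative to the median of all genes.

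Etv1 (chromosome 12, 39506845 to 39594802), the remaining member of this Ets subfamily, differed less than Etv4 and Etv5. It stood at 7.31, 5.70, 3.08 and 2.48 FPKM, and both mutant values were below both controls. The difference of -1.03 in upper molars was counted and that of -0.94 in lower molars just missed. Set against the all-gene median they were -0.99 and -0.56, and the upper molar difference was no longer counted after any of the 3 rescalings. Etv1 therefore took 20.6% and 21.7% of the summed Etv FPKM in the controls and 42.7% and 39.6% in the mutant upper and lower molars. The tables hold 2 transcript entries for Etv1, and the entry that starts upstream carried nearly all of the level, with 5.42 FPKM against 0.282 for the other entry in control lower molars, the library where the other was highest.

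Sprouty proteins are intracellular inhibitors of the Ras-ERK relay, and the 3 measured genes did not differ alike. Spry4 (chromosome 18, 38745919 to 38760922), known in the tooth chiefly from mesenchyme, was at 18.7 FPKM in control upper, 19.8 in control lower, 2.88 in mutant upper and 3.52 in mutant lower molars. Control libraries were close to each other and at least 5.31-fold above either mutant library. The differences were -2.34 and -2.20, lower than in all but 0.418% and 0.550% of the genes tested. Relative to the all-gene median the lower molar value was -1.81.

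Spry1 (chromosome 3, 37538872 to 37543521) stood at 15.9, 17.6, 4.92 and 6.59 FPKM. The genotypes did not overlap, and the mutant held 30.9% of the control in upper and 37.5% in lower molars. Its differences were -1.51 and -1.29. Relative to the median of all genes the lower molar value was -0.90, and each of the 3 rescalings left it short of the threshold (-0.82 to -0.85).

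Spry2 (chromosome 14, 106291164 to 106296036), known in the tooth chiefly from epithelium, was the weakest of the Sprouty genes in the controls. It was at 2.01 FPKM in control upper, 2.67 in control lower, 2.52 in mutant upper and 3.36 in mutant lower molars. Each mutant library was above the control of its jaw, by 0.23 and 0.25 (0.64 in lower molars relative to the all-gene median), and the genotypes overlapped. Neither difference was counted. After each rescaling Spry2 was higher in both mutant libraries than in both controls, where 24.5% (median of ratios), 26.9% (total) and 29.7% (upper quartile) of all genes were, and its difference in lower molars was between 0.62 and 0.65. The mutant minus control direction of Spry2 was that of the summed epithelial markers given above, and the part of epithelium in it was not tested. Spry2 made up 5.48% and 6.67% of the summed FPKM of the 3 Sprouty genes in the controls and 24.4% and 24.9% in the mutants.

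The Spred genes encode relatives of Sprouty that bind Raf and also dampen ERK activation, and neither was counted in any jaw. Spred1 (chromosome 2, 116947186 to 117005072) was at 9.29, 10.9, 7.41 and 7.47 FPKM. Both mutant values were below both controls, with differences of -0.29 and -0.49 (-0.10 in lower molars relative to the all-gene median) that lay within the range of most genes, since 22.7% and 40% of the genes tested had lower values. Spred2 (chromosome 11, 19824445 to 19922600) was at 14.5, 13.3, 9.34 and 12.4 FPKM, with differences of -0.59 in upper and -0.09 in lower molars (0.29 relative to the all-gene median). The direction for Spred2 in lower molars flipped after each of the 3 rescalings (0.36 to 0.39). The 2 Spred genes summed to 70.3% of the control level in upper and 82.1% in lower molars of the mutant, against 28.2% and 33.7% for the 3 Sprouty genes.

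Dusp6 (chromosome 10, 98725865 to 98730123), which encodes a cytosolic phosphatase that switches off ERK, was the most abundant of the 9 genes in both controls. It was at 24.9 FPKM in control upper, 24.1 in control lower, 11.3 in mutant upper and 3.88 in mutant lower molars. The genotypes did not overlap, but the mutant libraries also stood apart from each other. Dusp6 differed by -1.07 in the upper jaw and by -2.36 in the lower, the latter -1.97 relative to the all-gene median. In the mutant, upper molars were 2.92-fold above lower molars, a log2 difference of 1.34 that exceeded those of 99% of the genes tested. The all-gene median of that jaw difference was 0.27, and relative to it Dusp6 stood at 1.06. Dusp6 was the only one of the 9 genes that differed by at least 1 between the jaws in either genotype, where 3.22% of all genes were higher and 0.418% lower in mutant upper molars. The genotype difference of Dusp6 was 1.29 higher in upper than in lower molars, and 5.6% of all genes passed 1 in that direction and 1.31% in the other. With 1 library per group this was not tested, and after each rescaling it was below 1. The upper molar difference of Dusp6 was -0.93 after rescaling to a common upper quartile and fell just short of 1 in size after rescaling to a common total, so it was counted in neither.

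Il17rd (chromosome 14, 27852187 to 27920472), the gene whose synonym is Sef, encodes a transmembrane inhibitor of Fgf receptor signalling. It was at 6.25, 5.11, 4.12 and 1.25 FPKM. Both mutant values were below both controls, and the mutant lower library was the lowest. Il17rd differed by -0.50 in the upper jaw, not counted, and by -1.44 in the lower (-1.05 relative to the all-gene median). As with Dusp6, mutant upper molars were above mutant lower molars, by 1.19 (0.91 relative to the all-gene median), and controls of the jaws differed by 0.25.

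**Figure D2:**
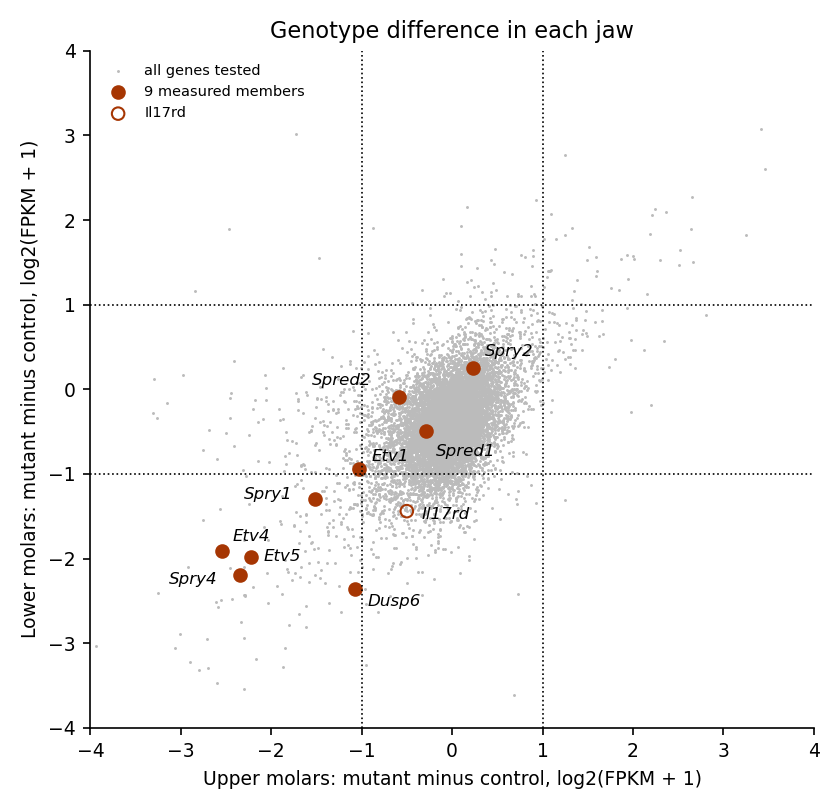
Mutant minus control difference of log2(FPKM + 1) in upper molars (horizontal) against lower molars (vertical) for all 10537 genes tested (grey), the 9 matched genes (filled) and Il17rd (open), with dotted lines at -1 and 1 and 10 genes outside the plotted range. Spry1, Spry4, Dusp6, Etv4 and Etv5 lie beyond -1 on both axes, and Spry2 lies above 0 on both.

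Both mutant values were below both controls in 8 of the 9 genes, all but Spry2. The same held for 41.3% of all genes tested, and the reverse, with both mutant values above both controls, for 9.52% and for 0 of the 9. After rescaling, the share with the mutant lower was 23.4% by median of ratios, 21.1% by total and 18.3% by upper quartile. After each rescaling the genes fully separated in this direction were 6, namely Spry1, Spry4, Dusp6, Etv1, Etv4 and Etv5. A gap of at least 1 between the lower control and the higher mutant was met by Spry1, Spry4, Dusp6, Etv4 and Etv5, against 1.19% of all genes, while 0.256% of all genes and 0 of the 9 met it in the other direction. Without the mutant lower library, the same 5 genes were at least 1 lower in mutant upper molars than in both controls, against 1.38% of all genes. Rescaling moved the calls over all genes from 168 lower and 42 higher in both jaws to 121 and 75 by median of ratios, 110 and 86 by upper quartile, and 116 and 78 by total. Of the 9 genes, 4 were lower in both jaws by median of ratios (all of the 5 but Spry1), against 1.15% of all genes. By upper quartile and by total these were 3 (Spry4, Etv4 and Etv5), against 1.04% and 1.1%. In upper molars alone 2.98%, 2.46% and 2.8% of all genes were lower after rescaling by median of ratios, upper quartile and total, and in lower molars alone 3%, 2.82% and 2.93%. A limma fit with genotype and jaw as terms, in which the jaws stand in for replicates, called 6 of the 9 genes lower, the 5 and Etv1, against 5.39% of all genes, and 0 higher, against 1.07%.

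**Figure D3:**
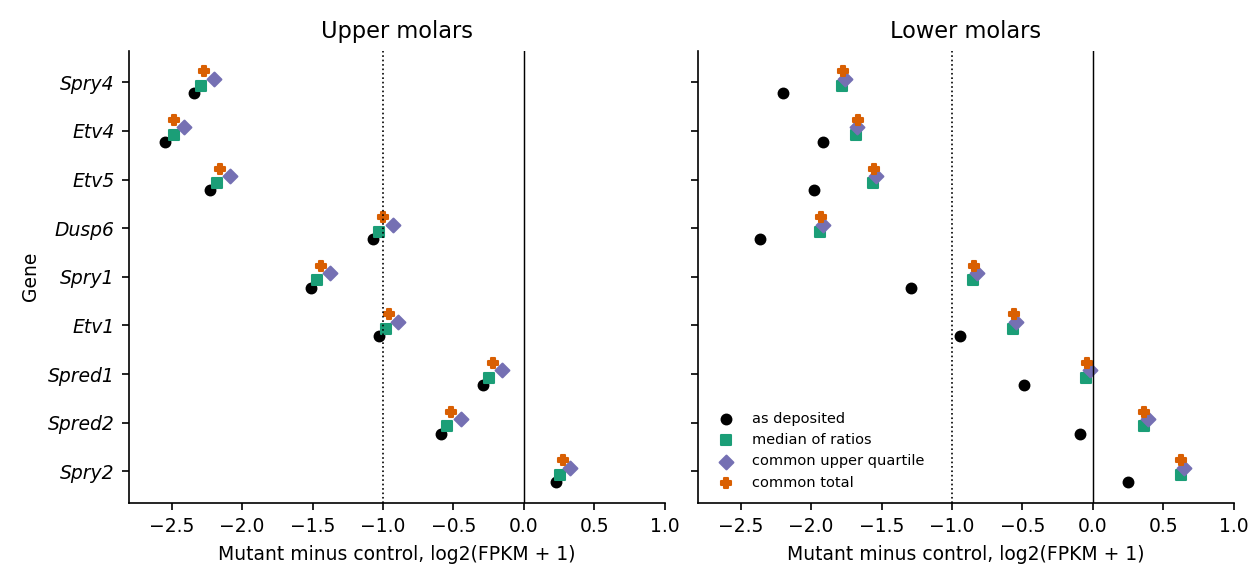
Mutant minus control difference of log2(FPKM + 1) for each of the 9 genes in upper (left) and lower molars (right), from FPKM as deposited (black circles) and after 3 rescalings of the libraries (coloured symbols), with a dotted line at -1. In lower molars rescaling shifts every gene toward higher values, and Spry1 then lies above -1 while Spry4, Etv4, Etv5 and Dusp6 stay below it.

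Between the jaws, 0 of the 9 genes differed by at least 1 in the controls, against 1.48% of all genes higher and 0.218% lower in upper molars. None of the 9 differed by that much in the same direction in both genotypes, against 0.133% of all genes higher and 0.0285% lower in upper molars. The upper minus lower differences in the controls ran from -0.29 for Spry2 to 0.58 for Etv4. All 3 Etv genes were somewhat higher in upper molars of the controls, at 1.62-fold for Etv4, 1.31-fold for Etv5 and 1.28-fold for Etv1, while the 3 Sprouty genes were somewhat lower there, a direction that flipped for Spry4 after rescaling by median of ratios and by total (0.01 and 0.05). In the mutant the differences other than that of Dusp6 ran from -0.37 for Spred2 to 0.23 for Etv1. The median upper minus lower difference over all genes was -0.08 in the controls and 0.27 in the mutant. In Spry1, Spry4, Spred1, Etv1, Etv4 and Etv5 both genotype differences were larger in size than both jaw differences, with the mutant lower. These are 6 of the 9 genes, against 13.8% of all genes, and do not include Dusp6.

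The order of levels changed with genotype. In control upper molars it ran Dusp6, Etv5, Spry4, Spry1, Spred2, Spred1, Etv1, Etv4 and Spry2, and in control lower molars Spry4 and Spry1 stood ahead of Etv5 with the rest unchanged. Etv5 and Spry4 in the upper, and Spry1 and Etv5 in the lower controls, are neighbours whose order has no replicate to test it. In mutant upper molars Dusp6, Spred2 and Spred1 led, and in mutant lower molars Spred2, Spred1 and Spry1 led. Etv4 was the lowest of the 9 in both mutant libraries.

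The rest of the pathway was read from lists chosen with earlier results of these data known. Of 22 Fgf family genes, which do not all encode secreted ligands, 9 were measured, and 1 was lower and 0 were higher in both jaws. That gene was Fgf3, a mesenchymal ligand of the tooth germ, at 6.44 FPKM in control upper, 8.66 in control lower, listed at 0 in mutant upper and 0.0365 in mutant lower molars. Fgf18, the gene of this list with the highest mean over the 4 libraries, was not counted in either jaw (4.63, 9.01, 3.78 and 14.1 FPKM). Fgf13, chosen after its values were seen, stood above it in upper molars and was counted as lower in lower molars only (8.37, 8.25, 8.06 and 2.47 FPKM). Fgf1 (1.74, 1.64, 0.216 and 0.544 FPKM) was counted as lower in upper molars only. Both Fgf3 and Fgf1 passed the filter only through their controls. In the other direction, Fgf10 (1.74, 2.12, 3.66 and 8.34 FPKM) was counted as higher in lower molars only. Fgf14 (1.06, 1.31, 4.73 and 2.64 FPKM) was counted as higher in upper molars only. Fgf1, Fgf10 and Fgf14 were also chosen after their values were seen. The median of the measured Fgf family genes was -0.09 for upper molars and within 0.01 of 0 for lower molars. Of the receptor genes 3 were measured and 0 were counted, with Fgfr2 at 8.69, 12.8, 8.78 and 7.77 FPKM. Fgfr1 carried a failed estimate in at least 1 library and was left out.

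Of the Ras-ERK relay genes (among them adaptors, Ras, Raf, MEK and ERK kinases, and also the Ras inhibitors Nf1 and Rasa1) 23 were measured. None was counted in both jaws or in upper molars. In lower molars 2 were lower, against 9.43% of all genes, namely Gab1 and Rps6ka3. Rps6ka3, chosen after its values were seen, stood at 10.1, 8.33, 5.16 and 2.67 FPKM, with differences of -0.85 and -1.34. The medians, -0.11 in upper and -0.38 in lower molars, lay near those of all genes. Gab1, an adaptor of receptor tyrosine kinases with the list's highest mean over the 4 libraries, stood at 36.9, 48.6, 18.1 and 15.8 FPKM, with differences of -0.99 and -1.56.

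Of other feedback genes, Il17rd among them, 12 were measured, with 0 lower and 1 higher in both jaws. Not all genes of this list encode feedback inhibitors, and its Flrt genes do not. The higher gene was Flrt2, which encodes a transmembrane protein with leucine-rich repeats (6.33, 6.80, 21.1 and 22.1 FPKM), with differences of 1.59 and 1.57. Dusp7, a phosphatase related to Dusp6 with the list's highest mean over the 4 libraries, was not counted (31, 30.5, 33.3 and 20.7 FPKM). The medians were -0.18 and -0.12. Dusp5, an ERK phosphatase of the nucleus chosen after its values were seen, did not pass the filter on low values (1.01, 1.18, 0.0358 and 0 FPKM).

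Of other Ets factors 14 were measured, and Etv6, an Ets repressor, was the only one lower in both jaws (11.6, 10.4, 3.89 and 2.55 FPKM; differences of -1.37 and -1.69). Elk3, whose mean over the 4 libraries was the highest by a narrow margin (14.26 against 14.24 FPKM for Erf), had 19.1, 17.2, 12.2 and 8.49 FPKM without being counted. The medians were -0.26 and -0.64. Of ERK response genes 13 were measured, and in both jaws 5 were lower while 0 were higher, beside 1.59% and 0.399% of all genes. The 5 were Egr1, Egr2, Egr3, Ier2 and Fosl2, whose differences in upper molars ran from -6.46 for Egr3 to -1.10 for Fosl2. Egr2 and Egr3 passed the filter only through their controls, and the list was chosen with results known, so this count is a description. The list's medians were -0.68 and -0.92, while Myc (17.5, 20, 13.2 and 13.1 FPKM) and Ccnd1 (13, 13.4, 15.4 and 16.8 FPKM), chosen after their values were seen, were not counted.

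**Figure D4:**
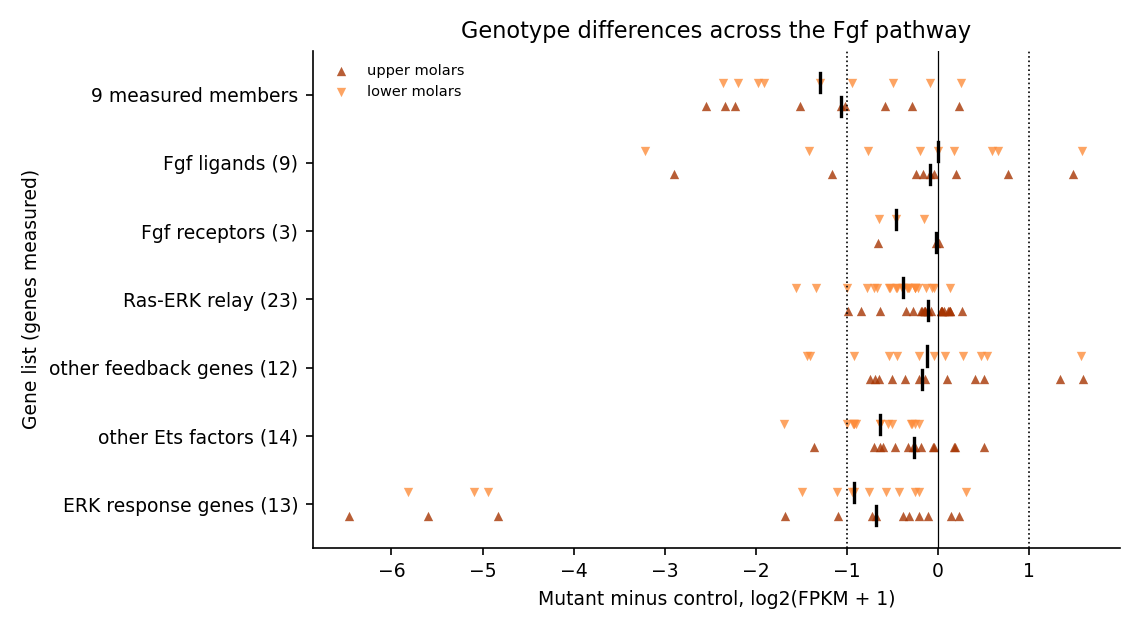
Mutant minus control difference of log2(FPKM + 1) for each measured gene of the 9 members and 6 pathway lists, in upper (upward triangles) and lower molars (downward triangles), with black bars at the medians and dotted lines at -1 and 1. The medians of the members, -1.07 and -1.29, lie below those of every list shown, and the lowest single points belong to Egr genes among the ERK response genes. The row labelled Fgf ligands holds the measured Fgf family genes.

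The 5 other genes nearest to the mean pattern of the 9, among 5327 with a mean of at least 5 FPKM, were Coro1c, Synpo, Vasn, Bcl10 and Nfe2l2. Nearness was the Euclidean distance of centred log2(FPKM + 1) values over the 4 libraries and ran from 0.127 for Coro1c to 0.185 for Nfe2l2. Coro1c, an actin-binding coronin, was at 27.6, 25.2, 12 and 10.6 FPKM, and Synpo, another actin-associated protein, at 21.9, 21.9, 7.72 and 8.39 FPKM. Of the 9 genes themselves Etv1 (0.334) and Spry1 (0.357) were closest to their mean and Spry2 (1.53) was farthest. With 4 values per gene this is a description of these libraries.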

How the data were processed

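RNA-seq values of 4 libraries of mouse molar mesenchyme, 1 per genotype and jaw, were analysed. Per the labels' protocols, tissue was laser-captured from frozen sections and cDNA came from a NuGEN Ovation RNA-Seq v2 kit, which is not stated to keep strand. No entry of another gene overlaps the 9 members or Il17rd in the tables. Bowtie 0.12.7, TopHat 1.4.1 and the build mm9 are named, per the submitters' processing notes. Per the file headers, the deposited tables give FPKM and a coverage signal for 28107 RefSeq transcript entries, laid out as Cufflinks output. Its version is not given in these sources. Coverage equalled FPKM times a constant per library (1.05, 0.812, 1.09 and 0.924), so no counts were recovered and no count model was used.

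FPKM was summed per gene name. Genes with a failed estimate (66) and names of small RNAs (715) were left out, and the 10537 genes averaging 1 FPKM or more were tested. A gene was counted at a difference of log2(FPKM + 1), pseudocount 1, of at least 1. Printed starts are 1-based. The members and all lists were chosen with earlier results of these data known. Named genes were the members, up to 6 genes per pathway list counted in both jaws and the gene with its highest mean where fewer than 2 were, Msx1, and the 2 genes with the highest means of each cell type list; the 5 genes nearest to the members' mean pattern were named too, and others are marked as chosen after their values were seen; lists of glia and neuron, bone and cartilage, and skeletal muscle markers were led by Gap43 and Nefl, Alpl and Ibsp, and Chrna1 and Tnnt1. Bone and cartilage markers summed to 40.6, 38.8, 64.5 and 52.4 FPKM, glia and neuron markers to 15.1, 8.96, 23.3 and 9.51, and skeletal muscle markers to 4.61, 5.77, 3.55 and 4.16. Alternatives were other pseudocounts, filters, thresholds and scalings, and limma 3.58.1 in R 4.3.3. Scripts (Python 3.11.15, pandas 2.3.3) were tested on simulated data.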

Additional observations from a re-analysis of the deposited data

How the results depend on the processing

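With 1 library per group the count of 5 genes lower in both jaws has no replicate check. It became 2 with a pseudocount of 5 (Spry4 and Etv5) and 3 after rescaling by upper quartile or by total (Spry4, Etv4 and Etv5). It stayed within 1.5 times under the other alternatives run, and was 5 without the mutant lower library, an alternative chosen after seeing the data. With a pseudocount of 5, lower molars alone had 3 lower genes, and the counts of genes that differed by jaw in the mutant and of genes whose genotype difference differed between jaws were both 0, as the latter was after each of the 3 rescalings. At 1.5-fold the latter was 2. Over all genes, lower and higher calls in both jaws were 280 and 87 with a pseudocount of 0.1, 66 and 14 with a pseudocount of 5, 106 and 24 among genes averaging 5 FPKM or more, and 600 and 140 at 1.5-fold. After rescaling, 75 genes were higher by median of ratios, 86 by upper quartile (110 lower) and 78 by total. The limma fit, at an adjusted p of 0.05, had 1 residual degree of freedom per gene and relied on the spread over all genes. Of the pathway counts in both jaws, ERK response genes lower went from 5 to 3 with a pseudocount of 5. At that pseudocount other Ets factors lower went from 1 to 0. Fgf family genes lower went from 1 to 0 among genes averaging 5 FPKM or more, and higher from 0 to 1 by upper quartile. A pseudocount of 0.1 or a 1.5-fold threshold moved, all upward, the other 9 of the 13 that changed by more than 1.5 times or to or from 0. Smaller shifts were not among the 13, such as ERK response genes lower, which were 4 after each of the 3 rescalings and 7 at 1.5-fold. Among values for single members under these alternatives, 13 lost the call, 3 gained it and 344 did neither. No paired analysis was possible because each group has 1 library and the labels give no replicate numbers; the jaw term of the limma fit matches the genotypes within a jaw, not by animal or litter. Low coverage limits Etv4 in the mutants most.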

Other observations

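Further genes of the feedback group were read after their values were seen, and their FPKM is given for the controls and then the mutants, upper before lower molars in each. Dusp4, an inducible nuclear phosphatase, did not average 1 FPKM and was at 1.54, 0.942, 0.578 and 0.312 FPKM. Spry3, also below that level, lay between 0.109 and 0.220 FPKM in all 4 libraries. Dusp2, another phosphatase of the family, stood at 1.37, 2.94, 0.460 and 0.481 FPKM, and was counted as lower in lower molars only. It passed the filter only through its controls. Flrt3, a relative of Flrt2, stood at 10.6, 16.5, 28.4 and 23.2 FPKM, and was counted as higher in upper molars only.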
